A study of Mus musculus with 8 samples.

Results

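The 39 genes described here encode SWI/SNF subunits, the ISWI ATPases and the CHD remodelers. They were taken by symbol from a fixed list. The table of 20926 genes held 38 of the 39, and all 38 passed the filter on low values, which kept 14854 genes. The member without a row was *Actl6b*, which was not analysed here. RNA-seq was performed on molar mesenchyme of mice at PN day 3, with 4 libraries from Ezh2fl/fl mice (Control) and 4 from Osr2KI-Cre;Ezh2fl/fl mice. Both groups carried the floxed *Ezh2* alleles, and the Cre knocked into *Osr2* was the difference between them, so the knock-in and the loss of *Ezh2* cannot be told apart. The labels give the strain as C57BL/6 and the study describes a mixed background. Osr2-Cre acts in dental follicle, dental papilla and alveolar bone but not in tooth epithelium. The epithelium was described as removed before RNA isolation, but epithelial transcripts were present in all 8 libraries (*Krt5*, 827 to 1992). Nothing in the labels says that replicates came from separate animals, so p-values measure the spread between these libraries.

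Chromatin remodelers use the energy of ATP to slide, evict or exchange nucleosomes. SWI/SNF (BAF) complexes carry 1 of the alternative ATPases *Smarca4* (BRG1) and *Smarca2* (BRM), and exist as canonical BAF with *Arid1a* or *Arid1b*, as PBAF with *Arid2*, *Pbrm1* and *Brd7*, and as a non-canonical form with *Brd9*. Their activity is known to oppose Polycomb repression, in which *Ezh2* is the methyltransferase of PRC2 that trimethylates H3K27. ISWI ATPases space nucleosomes, and the CHD proteins are ATPases that carry paired chromodomains, with *Chd3*, *Chd4* and *Chd5* acting as alternative ATPases of the NuRD deacetylase complex. *Arid1a* is the remodeler subunit that the study set against *Ezh2*, so the comparison asks whether the remodeler transcripts differed between molars with and without mesenchymal *Ezh2*.

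None of the 38 genes passed an adjusted p of 0.05 (limma on log2(value + 1), Benjamini-Hochberg over all genes tested), where 2.07% of all genes did. At an unadjusted p under 0.05, 6 of 38 were higher in Osr2KI-Cre;Ezh2fl/fl molars, where 8.27% of all genes were, and 0 of 38 were lower, where 4.87% of all genes were. The 6 were *Smarca1*, *Phf10*, *Brd9*, *Smarcd3*, *Chd5* and *Chd7*. Scaling by the median of ratios gave 4 of 38 higher, where 7.07% of all genes were, and 2 lower, *Smarcd2* and *Bcl7a*, which is near the 5.88% of all genes that were lower. Of the 6, *Smarca1*, *Phf10* and *Chd5* kept an unadjusted p under 0.05 when each of the 8 libraries was left out in turn, *Chd7* in 5 of 8, and *Brd9* and *Smarcd3* in 2 of 8. Without Osr2KI-Cre;Ezh2fl/fl library 2, 6 other genes of 38 were lower at that threshold, *Arid1a*, *Pbrm1*, *Smarca4*, *Smarcc1*, *Chd4* and *Chd9*, where 4.5% of all genes were, and none of them was without any other library. Without Osr2KI-Cre;Ezh2fl/fl library 1 the 3 lower genes were *Smarcd2*, *Bcl7a* and *Bcl11b* (5.33% of all genes) and *Smarcc2* and *Dpf3* were among the 7 higher (9.4%). Without Control library 1, *Arid1b* and *Bcl7a* were lower (6.13% of all genes) and *Dpf3* was among the 6 higher (8.58%), and without Osr2KI-Cre;Ezh2fl/fl library 3, *Bcl7a* was lower (6.4%) and *Smarcb1* among the 5 higher (8.67%). With the enamel transcripts as a covariate *Pbrm1*, *Smarca4*, *Smarca5* and *Chd4* were lower (6.11% of all genes) and *Bcl11a* was among the 5 higher (8.31%). The estimates were evenly split, with 19 positive and 19 negative and a median log2 fold change of 0.01, as over all genes tested (0.01). In the main fit their range ran from -0.30 for *Chd4* to 0.53 for *Chd5*. The 95% interval lay within 0.5 of 0 on the log2 scale for 31 of 38 genes, against 11134 of the 14854 genes tested. For these 31 genes a larger difference of the group means lies outside the interval.

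**Figure D1:**
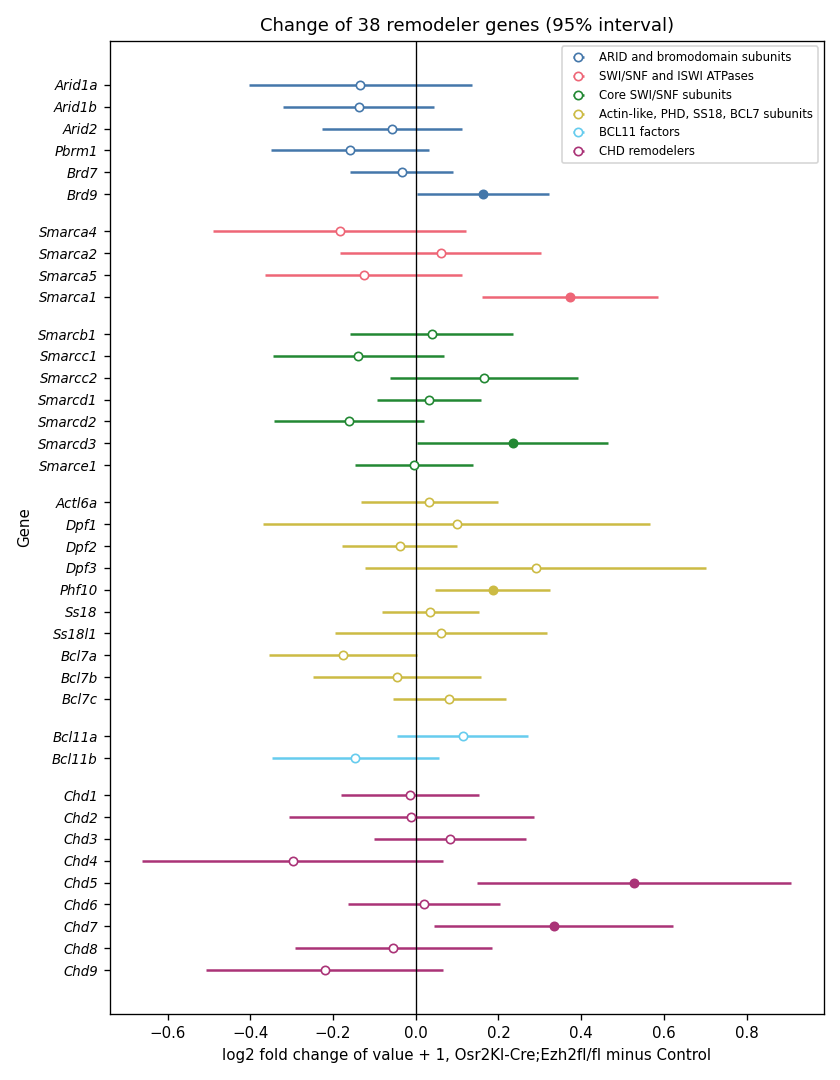
Log2 fold change of log2(value + 1) between Osr2KI-Cre;Ezh2fl/fl and Control for each of the 38 genes, in order of role, with 95% intervals from limma (n = 4 libraries a group); filled points mark an unadjusted p under 0.05. The 6 filled points all lie to the right of 0, and 31 intervals lie within 0.5 of 0.

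The deposited values of *Ezh2* in Control were 55.0, 38.3, 39.6 and 39.0 and in Osr2KI-Cre;Ezh2fl/fl libraries 35.2, 30.1, 23.2 and 36.0. Each Osr2KI-Cre;Ezh2fl/fl library lay below each Control library (log2 fold change -0.46 ± 0.16 SE, limma adjusted p = 0.235, exact permutation p = 0.0286, which is the smallest p this design allows). The values are summed over the whole gene and do not separate the deleted exons. Enamel transcripts were high in Control libraries 3 and 4 and Osr2KI-Cre;Ezh2fl/fl library 3. *Amelx* was 9733, 16250 and 7818 there and 316 to 1377 in the other libraries, although the epithelium was described as removed. All 6 enamel and all 6 epithelial markers were in the table, and 2 and 3 of them were lower at an unadjusted p under 0.05. Enamel markers summed to 811 to 28715 in Control and 738 to 11511 in Osr2KI-Cre;Ezh2fl/fl libraries, and epithelial markers to 1801 to 3920 and 1700 to 2369. All 8 dental mesenchyme markers were detected (655 to 791 against 691 to 769), with 4 of 8 higher and 0 lower at an unadjusted p under 0.05, and of these *Lhx8* passed the adjusted p. Endothelial markers summed to 264 to 294 and 225 to 249, with 3 of 3 lower at an unadjusted p under 0.05. The odontoblast list had 2 of 3 genes lower (sums of 1524 to 3013 and 671 to 2466), and the immune (77.8 to 124 and 92.3 to 115) and red cell (193 to 303 and 232 to 476) lists had 0 past that threshold. The part of these markers in the results below was not tested, and in bulk RNA fewer cells of a type cannot be told apart from less RNA per cell. *Xist* was near 0 in Control library 2 and Osr2KI-Cre;Ezh2fl/fl library 1 (0.373 and 0.414), and *Ddx3y* in Osr2KI-Cre;Ezh2fl/fl libraries 2 and 3 (0.0455 and 0.0424), while the other 4 libraries held both.

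Levels were compared between genes as the mean value over 8 libraries per kb of exon in GENCODE, for the 35 genes whose bounds in the table match that annotation. Of these, 27 lay above the median of all tested genes with a length. The NuRD ATPases *Chd3* and *Chd4* had the highest levels per kb, 54.3 and 42.0, at the 95.3 and 93.8 percentiles. They were followed by the core SWI/SNF subunits *Smarce1* (32.8) and *Smarcc2* (32.1) and by *Smarca4* (27.8), which stood above the alternative ATPase *Smarca2* (8.98). *Arid1a* was at 14.2, *Arid2* at 11.96 and *Arid1b* at 7.06. The lowest levels were those of *Ss18l1* (1.73), *Chd7* (1.37), *Dpf1* (1.09) and *Chd5* (0.386, the 3.52 percentile). *Dpf1* and *Ss18l1* encode subunits known from the neuronal form of BAF, and *Chd5* is best known from the nervous system. *Chd5* had 139 to 396 estimated reads a library, the fewest of the 38 genes.

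**Figure D2:**
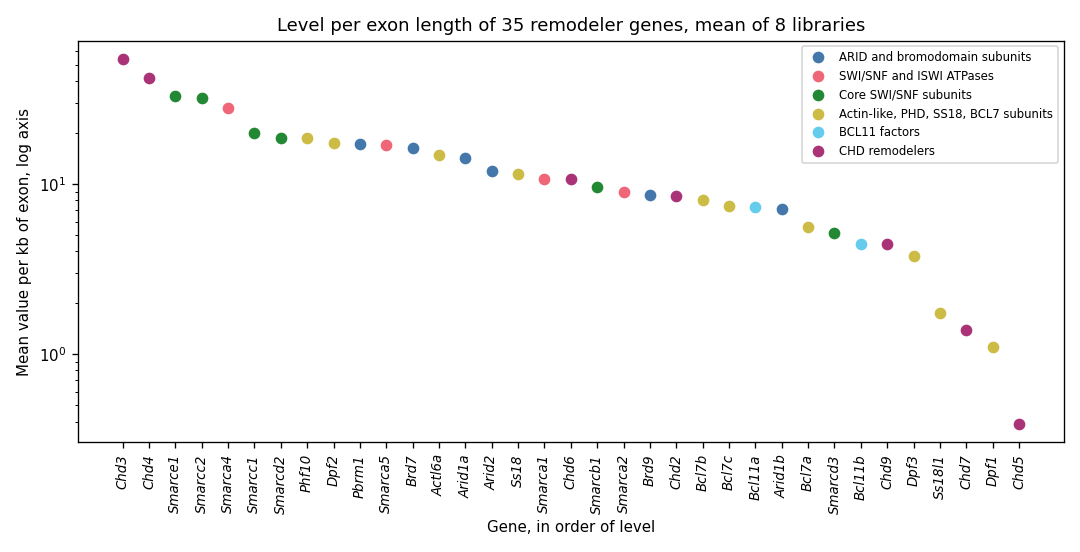
Mean value over 8 libraries per kb of exon (log axis) for the 35 genes with a matching annotation, in order of level and coloured by role. Chd3 (54.3) and Chd4 (42.0) lead and Chd5 (0.386) is lowest, and the core SWI/SNF subunits span 32.8 for Smarce1 to 5.13 for Smarcd3.

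The promoters of 30 of the 38 genes were matched by symbol to RefSeq windows on GRCm38.p6, each 300 bases long, from 250 bases before to 50 after a start that RefSeq annotates, which can lie inside the bounds of the gene in the table. They are described because Polycomb complexes are known to occupy CpG-rich promoters. The CG dinucleotide, which reads the same on both strands, occurs in 94.6% of the 32851 windows. Taking the richest window of each gene, the 30 genes held a median of 31.5 CG dinucleotides, against 22 for the 10666 tested genes with a window. *Smarcd2* (4), *Smarca1* (9) and *Bcl11b* (9) held the fewest, and *Phf10* (62) the most. The windows of *Arid1a*, of *Smarca1* (the largest difference in units of its error) and of *Chd5* (the largest log2 fold change on the log2(value + 1) scale) follow, 5′ to 3′ on the strand of the gene, with CG in capitals.
Arid1a (22 CG, chr4:133756720-133757019, minus strand): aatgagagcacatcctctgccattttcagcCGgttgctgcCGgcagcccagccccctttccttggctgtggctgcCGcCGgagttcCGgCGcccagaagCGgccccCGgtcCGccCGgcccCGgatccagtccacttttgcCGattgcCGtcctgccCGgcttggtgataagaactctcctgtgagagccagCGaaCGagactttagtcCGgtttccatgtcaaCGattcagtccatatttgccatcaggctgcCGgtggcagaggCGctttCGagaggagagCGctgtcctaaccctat
Arid1a (36 CG, chr4:133753936-133754235, minus strand): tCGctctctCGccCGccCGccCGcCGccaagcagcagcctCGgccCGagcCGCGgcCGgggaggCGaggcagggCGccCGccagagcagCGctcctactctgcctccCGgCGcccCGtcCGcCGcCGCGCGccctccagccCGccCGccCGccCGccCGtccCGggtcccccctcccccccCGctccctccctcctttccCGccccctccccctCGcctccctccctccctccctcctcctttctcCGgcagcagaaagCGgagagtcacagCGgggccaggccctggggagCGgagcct
Smarca1 (9 CG, chrX:47892564-47892863, minus strand): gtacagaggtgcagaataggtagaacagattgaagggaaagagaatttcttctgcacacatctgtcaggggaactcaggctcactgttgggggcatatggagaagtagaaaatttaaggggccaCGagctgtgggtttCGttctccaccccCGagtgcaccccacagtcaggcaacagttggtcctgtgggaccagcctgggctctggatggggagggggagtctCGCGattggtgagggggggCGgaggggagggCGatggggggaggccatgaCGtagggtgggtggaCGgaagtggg
Chd5 (33 CG, chr4:152338404-152338703, plus strand): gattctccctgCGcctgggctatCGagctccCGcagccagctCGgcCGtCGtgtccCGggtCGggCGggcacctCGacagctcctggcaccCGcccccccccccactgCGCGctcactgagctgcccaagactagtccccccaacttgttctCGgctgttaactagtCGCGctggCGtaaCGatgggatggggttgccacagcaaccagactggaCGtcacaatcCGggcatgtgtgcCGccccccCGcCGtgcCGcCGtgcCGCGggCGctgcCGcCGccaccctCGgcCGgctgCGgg
The first *Arid1a* window is that at the start of the gene as the table bounds it. Its 22 CG equal the median of the richest windows of the tested genes, whereas the median over all 32851 windows was 7. The second belongs to a start inside those bounds, as do the printed windows of *Smarca1* and *Chd5*. The *Chd5* window at the start of the gene as the table bounds it held 32 CG and is not printed. Taking again the richest window of each of the 10666 tested genes, 14.0% had 36 or more, as *Arid1a*, and 19.3% had 33 or more, as *Chd5*, whereas 14.7% had 9 or fewer, as *Smarca1*. No value in the table measures chromatin at these windows.

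Among the ARID and bromodomain subunits, 5 of 6 had negative estimates and none passed the adjusted p. *Arid1a*, the DNA-binding subunit of canonical BAF, lies on the minus strand of chromosome 4 (mm10) from 133679008 to 133756769. Its values were 188, 166, 166 and 159 in Control and 128, 192, 142 and 162 in Osr2KI-Cre;Ezh2fl/fl libraries 1 to 4. The lowest libraries were Osr2KI-Cre;Ezh2fl/fl 1 and 3 and the highest was Osr2KI-Cre;Ezh2fl/fl 2 so that 3 of the 4 Osr2KI-Cre;Ezh2fl/fl libraries lay outside the Control range, on both sides of it. The means were 170 ± 12.9 and 156 ± 27.9 (SD, n = 4 each), and the log2 fold change was -0.13 (95% interval -0.40 to 0.14, limma adjusted p = 0.758, exact permutation p = 0.371). Without Osr2KI-Cre;Ezh2fl/fl library 2 it was -0.24 with an unadjusted p of 0.0384 and an adjusted p of 0.369 (limma), without library 1 it was -0.04 (unadjusted p = 0.69), and with library weights it was -0.04.

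*Arid1b*, the paralog that takes the place of *Arid1a*, was 83.5 to 104 in Control and 79.3 to 88.8 in Osr2KI-Cre;Ezh2fl/fl libraries (log2 fold change -0.14, 95% interval -0.32 to 0.04). Its log2 fold change was -0.085 without Control library 4, -0.19 without Control library 1 and -0.21 with library weights. Of the PBAF subunits, *Arid2* was 124 to 137 and 112 to 138, *Pbrm1* was 150 to 170 and 125 to 156, and *Brd7* was 83.3 to 88.7 and 81.1 to 86.8. *Pbrm1* had the lowest estimate of the group in the main fit, -0.16 (95% interval -0.35 to 0.03). At -0.09 without Osr2KI-Cre;Ezh2fl/fl library 1 it was above *Arid1b* (-0.12), and at -0.20 without library 2 above *Arid1a* (-0.24). *Brd9*, the bromodomain subunit of non-canonical BAF, was the one positive estimate. Its values were 60.3, 55.2, 57.5 and 52.0 in Control and 57.8, 65.5, 64.4 and 64.6 in Osr2KI-Cre;Ezh2fl/fl libraries 1 to 4, so that 3 of 4 lay above every Control library. The log2 fold change was 0.16 ± 0.07 (SE), the limma adjusted p 0.364 and the exact permutation p 0.0571. The unadjusted p of *Brd9* was under 0.05 in 7 of the 20 alternatives run, and with the enamel transcripts as a covariate it was 0.115.

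Of the 4 ATPases, *Smarca1* had the clearest difference of all 38 genes. *Smarca1* (SNF2L), an ISWI ATPase on chromosome X, was 63.6, 59.9, 52.9 and 51.6 in Control and 65.9, 80.3, 70.4 and 79.9 in Osr2KI-Cre;Ezh2fl/fl libraries 1 to 4. Every Osr2KI-Cre;Ezh2fl/fl library lay above every Control library, as for 5.76% of all genes. The means were 57.0 ± 5.71 and 74.1 ± 7.16 (SD, n = 4 each), 1.30 times as high, and the log2 fold change was 0.37 ± 0.09 SE (95% interval 0.16 to 0.59). The unadjusted p was 0.00302, the adjusted p 0.0904 (limma) and the exact permutation p 0.0286. The gene lies from 47809368 to 47892974 on the minus strand of mm10 and overlaps no annotated gene. The values of the 2 libraries without *Xist* were 59.9 in Control and 65.9 in Osr2KI-Cre;Ezh2fl/fl, and with *Xist* as a covariate the estimate was 0.37 (adjusted p = 0.132). It was 0.28 with the enamel transcripts as a covariate (adjusted p = 0.139) and 0.28 without the 3 libraries high in them (adjusted p = 0.683).

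Its paralog *Smarca5* (SNF2H), the main ISWI ATPase of most cells, had the opposite sign in the main fit. It was 145, 128, 141 and 129 in Control and 119, 139, 102 and 141 in Osr2KI-Cre;Ezh2fl/fl libraries (log2 fold change -0.13, 95% interval -0.37 to 0.11). The log2 fold change of *Smarca5* was -0.03 without Osr2KI-Cre;Ezh2fl/fl library 3, 0.04 with library weights and -0.22 with the enamel covariate. *Smarca4* was 198, 182, 193 and 186 in Control and 151, 209, 129 and 190 in Osr2KI-Cre;Ezh2fl/fl libraries. As for *Arid1a*, Osr2KI-Cre;Ezh2fl/fl libraries 1 and 3 were below every Control library and library 2 was above them all. The log2 fold change of *Smarca4* was -0.18 (95% interval -0.49 to 0.12). It was -0.29 without Osr2KI-Cre;Ezh2fl/fl library 2 (unadjusted p = 0.0397, limma adjusted p = 0.374) and -0.06 without library 3. That of *Smarca2* was 0.06 (95% interval -0.18 to 0.30). For *Smarca2* it was 0.14 without Osr2KI-Cre;Ezh2fl/fl library 1, 0.002 without library 2, 0.21 with library weights and -0.04 with the enamel covariate.

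**Figure D3:**
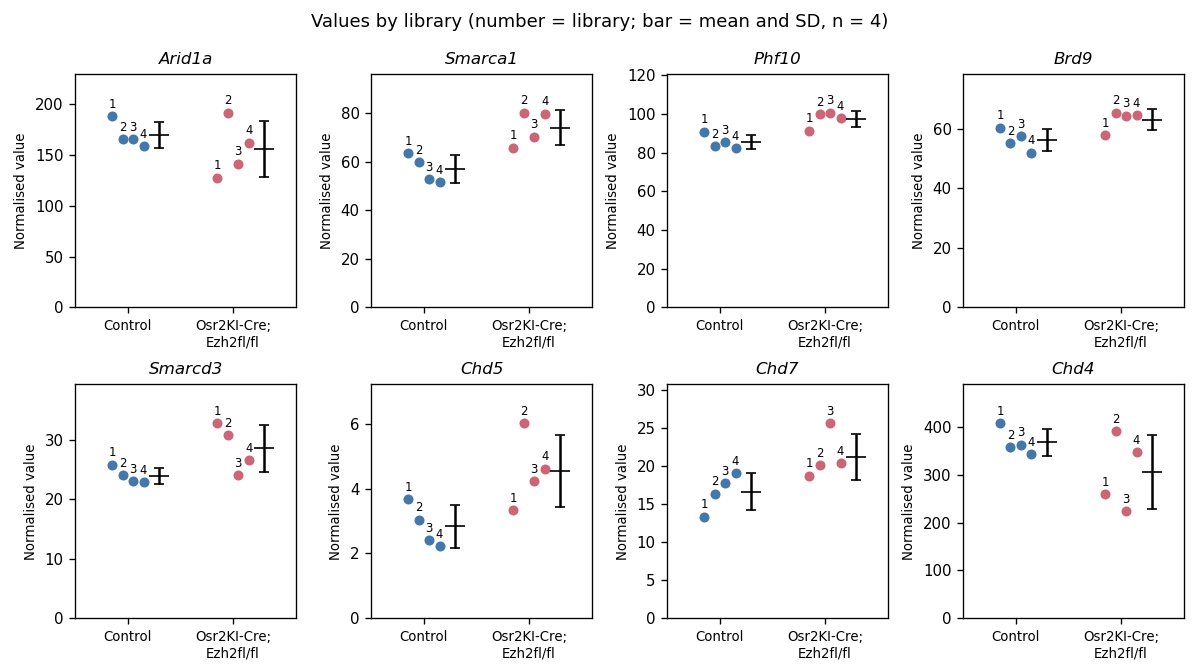
Deposited normalised value by library, on axes from 0, for Arid1a, the 6 genes with an unadjusted p under 0.05 and Chd4; points are libraries with their number and bars are mean and SD (n = 4). The groups are apart for Smarca1 and, narrowly, for Phf10 (91.0 against 91.4), and overlap for the other 6 genes.

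The 7 core subunits, which include the scaffold of SWI/SNF complexes, gave 4 positive and 3 negative estimates between -0.16 and 0.23. *Smarcd3* (BAF60c), known for its role in heart and muscle, was 25.8, 24.1, 23.1 and 22.9 in Control and 32.8, 30.8, 24.0 and 26.6 in Osr2KI-Cre;Ezh2fl/fl libraries 1 to 4. Library 3 of Osr2KI-Cre;Ezh2fl/fl lay within the Control range and the other 3 above it. The log2 fold change was 0.23 ± 0.10 (SE), the limma adjusted p 0.366 and the exact permutation p 0.0857, and *Smarcd3* overlaps *Chpf2* on the opposite strand. Its log2 fold change was 0.17 without Osr2KI-Cre;Ezh2fl/fl library 1 and 0.31 without library 3. With the enamel covariate it was 0.15 (unadjusted p = 0.153 from limma), and without the 3 enamel-high libraries 0.26 (unadjusted p = 0.0664). The muscle marker list summed to 4.97 to 27.1 in Control and 1.67 to 8.42 in Osr2KI-Cre;Ezh2fl/fl libraries, with 4 of 6 genes in the table and 0 of the 2 tested passing.

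*Smarcb1* (SNF5), a core subunit of every SWI/SNF form except the non-canonical one, was 71.8 to 76.6 in Control and 64.0 to 83.5 in Osr2KI-Cre;Ezh2fl/fl libraries (log2 fold change 0.04, 95% interval -0.16 to 0.24). Its log2 fold change was 0.13 without Osr2KI-Cre;Ezh2fl/fl library 3 (limma unadjusted p = 0.043, adjusted p = 0.312) and -0.0009 without library 4. *Smarcd1* (0.03), *Smarcd2* (-0.16), *Smarce1* (0.00), *Smarcc1* (-0.14) and *Smarcc2* (0.16) completed the group of log2 fold changes. That of *Smarcd2* was -0.22 without Osr2KI-Cre;Ezh2fl/fl library 1 (limma unadjusted p = 0.0103, adjusted p = 0.151) and -0.10 without library 3. That of *Smarcc2* was 0.24 without library 1 (unadjusted p = 0.0277, adjusted p = 0.253 from limma) and 0.10 without library 2. The interval of *Smarce1* was among the narrower ones, from -0.15 to 0.14.

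Of the 10 actin-like, PHD-finger, SS18 and BCL7 subunits tested, 7 had positive estimates. *Phf10* (BAF45a), the PHD-finger subunit of PBAF known from dividing progenitors, was 91.0, 83.3, 85.4 and 82.5 in Control and 91.4, 100, 101 and 97.7 in Osr2KI-Cre;Ezh2fl/fl libraries 1 to 4. The groups did not overlap, but the lowest Osr2KI-Cre;Ezh2fl/fl library exceeded the highest Control library by little. The means were 85.5 ± 3.81 and 97.5 ± 4.27 (SD, n = 4 each). The log2 fold change was 0.19 ± 0.06 (SE), the limma adjusted p 0.208 and the exact permutation p 0.0286. Without the 3 enamel-high libraries it was 0.14 with an unadjusted p of 0.137 (limma). *Phf10* overlaps *1600012H06Rik* on the opposite strand, as *Brd9* does *Gm41002* and *Chd5* does *Gm13645*. *Phf10* and *Smarca1* were the 2 genes of 38 with every Osr2KI-Cre;Ezh2fl/fl library above every Control library, a share near the 5.76% of all genes, and 0 of 38 had every one below, where 2.77% of all genes did.

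The other BAF45 subunits include *Dpf1* and *Dpf3*, whose intervals were wide. *Dpf3*, known from muscle and nerve, was 19.1, 13.4, 13.2 and 11.0 in Control and 13.1, 20.6, 15.9 and 20.4 in Osr2KI-Cre;Ezh2fl/fl libraries (log2 fold change 0.29, 95% interval -0.12 to 0.70). It was 0.43 without Control library 1 (limma unadjusted p = 0.0267, adjusted p = 0.253) and 0.18 without Control library 4. With the enamel covariate it was 0.11 (limma unadjusted p = 0.51), and without the 3 enamel-high libraries 0.13 (unadjusted p = 0.604). *Dpf1* was 4.93 to 7.12 and 4.12 to 8.70, and the widely expressed *Dpf2* was 110 to 117 and 103 to 119. *Bcl7a* was 52.8, 58.9, 57.4 and 56.2 in Control and 52.4, 44.1, 54.6 and 48.4 in Osr2KI-Cre;Ezh2fl/fl libraries, with a log2 fold change of -0.18 (unadjusted p = 0.0523, adjusted p = 0.388 from limma). *Actl6a*, *Ss18*, *Ss18l1*, *Bcl7b* and *Bcl7c* had log2 fold changes from -0.05 to 0.08. *Ss18* had one of the narrowest intervals, from -0.08 to 0.15.

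*Bcl11a* and *Bcl11b*, zinc-finger factors that join BAF complexes and are known in the tooth for *Bcl11b* (CTIP2) in ameloblasts, had estimates of opposite sign. *Bcl11a* was 84.4, 90.1, 101 and 94.0 in Control and 103, 98.2, 103 and 95.3 in Osr2KI-Cre;Ezh2fl/fl libraries (log2 fold change 0.11, 95% interval -0.04 to 0.27). *Bcl11b* was 35.2, 37.7, 40.2 and 38.6 in Control and 40.3, 31.4, 32.4 and 32.9 in Osr2KI-Cre;Ezh2fl/fl libraries (log2 fold change -0.15, 95% interval -0.35 to 0.06). For *Bcl11b*, Osr2KI-Cre;Ezh2fl/fl library 1 was the highest of all 8 and the other 3 were below every Control library. Without library 1 the log2 fold change of *Bcl11b* was -0.22 (limma unadjusted p = 0.0107, adjusted p = 0.154), and without library 2 it was -0.11.

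The 9 CHD genes gave 4 positive and 5 negative estimates and the widest range of the groups. *Chd5* was 3.68, 3.04, 2.41 and 2.22 in Control and 3.34, 6.02, 4.24 and 4.62 in Osr2KI-Cre;Ezh2fl/fl libraries 1 to 4. The groups overlapped in Osr2KI-Cre;Ezh2fl/fl library 1 and Control library 1. The means were 2.84 ± 0.665 and 4.56 ± 1.12 (SD, n = 4 each), 1.61 times as high. The log2 fold change was 0.53 ± 0.17 (SE), the limma adjusted p 0.188 and the exact permutation p 0.0571. With a pseudocount of 5 it was 0.28, below the 0.35 of *Smarca1*, and with the enamel covariate 0.38, below the 0.49 of *Chd7*. Without the 3 libraries high in enamel transcripts it was 0.35 with an unadjusted p of 0.16 (limma adjusted p = 0.936). Of the 8 neuron and Schwann cell markers 7 were in the table and summed to 100.2 to 158 in Control and 102 to 123 in Osr2KI-Cre;Ezh2fl/fl libraries, and 0 of the 5 tested passed. Among the 2 that the filter left out, *Snap25* was 0.104, 0.107, 0.0344 and 0.275 in Control and 0.455, 0.409, 0.339 and 0.336 in Osr2KI-Cre;Ezh2fl/fl libraries, low in all 8 but with every Osr2KI-Cre;Ezh2fl/fl library above every Control library, and *Sox10* was 0.104 to 1.46 and 0.0910 to 1.03.

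*Chd7*, the remodeler mutated in CHARGE syndrome, was 13.4, 16.4, 17.8 and 19.1 in Control and 18.7, 20.1, 25.6 and 20.4 in Osr2KI-Cre;Ezh2fl/fl libraries 1 to 4. The groups overlapped between Osr2KI-Cre;Ezh2fl/fl library 1 and Control library 4. The log2 fold change was 0.33 ± 0.13 (SE), the limma adjusted p 0.293 and the exact permutation p 0.0571. Within Control the higher values were in the libraries high in enamel transcripts, and so was the highest value in Osr2KI-Cre;Ezh2fl/fl. With the enamel transcripts as a covariate the log2 fold change was 0.49 with an adjusted p of 0.0202 (limma), which made *Chd7* the single gene of the 38 past the threshold in that fit, where 2.03% of all genes were. It was 0.24 both without Control library 1 and without Osr2KI-Cre;Ezh2fl/fl library 3, with unadjusted p of 0.0787 and 0.0733 (limma), and the unadjusted p was 0.0567 without Control library 2. Without the 3 libraries high in those transcripts it was 0.39 with an unadjusted p of 0.0162 and an adjusted p of 0.461 (limma).

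*Chd4* had the lowest estimate of all 38 genes in the main fit. It was 408, 357, 363 and 343 in Control and 260, 391, 225 and 348 in Osr2KI-Cre;Ezh2fl/fl libraries 1 to 4, so that Osr2KI-Cre;Ezh2fl/fl libraries 1 and 3 were far below the Control range and libraries 2 and 4 within it. The means were 368 ± 27.8 and 306 ± 76.8 (SD, n = 4 each), and the log2 fold change was -0.30 (95% interval -0.66 to 0.07, limma adjusted p = 0.505, exact permutation p = 0.229). It was -0.16 without Osr2KI-Cre;Ezh2fl/fl library 3 (limma unadjusted p = 0.27), above *Chd9* (-0.23), and -0.43 without library 2 (unadjusted p = 0.0154, adjusted p = 0.252). With the enamel covariate it was -0.46 (adjusted p = 0.163) and with library weights -0.08, above *Bcl7a* (-0.24). *Chd3*, the paralog in the same complex, was 434 to 462 and 416 to 517 (log2 fold change 0.08, 95% interval -0.10 to 0.27).

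*Chd9* was 104 to 115 in Control and 70.4, 111, 94.7 and 103 in Osr2KI-Cre;Ezh2fl/fl libraries, with a log2 fold change of -0.22 (95% interval -0.51 to 0.07). It was -0.09 without Osr2KI-Cre;Ezh2fl/fl library 1 and -0.30 without library 2 (limma unadjusted p = 0.037, adjusted p = 0.367). *Chd8*, a remodeler known as a risk gene of autism, was 118 to 135 and 99.1 to 144 (log2 fold change -0.05), and *Chd6* was 189 to 209 and 182 to 223 (0.02). *Chd2* was 115 to 128 and 95.8 to 159 (log2 fold change -0.01, 95% interval -0.31 to 0.29). *Chd1* was 96.4 to 104 and 89.4 to 110.5 (log2 fold change -0.01), but its row in the table spans 15704967 to 17394898 of chromosome 17 where GENCODE ends the gene at 15772610, so reads of neighbouring genes may be counted with it.

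Libraries differed in how often they held the lowest or highest value of a gene. Of the 38 genes, 10 had their lowest value in Osr2KI-Cre;Ezh2fl/fl library 1 (26.3%, against 14.3% of all genes tested) and 10 in library 3 (26.3%, near the 21.0% of all genes), and 9 had it in Control library 4 (23.7%, against 14.9%). Osr2KI-Cre;Ezh2fl/fl library 2 held the highest value of 14 of the 38 (36.8%, against 18.7%) and library 3 that of 8 (21.1%, against 2976 of the 14854 genes tested). The SD of log2(value + 1) was larger in Osr2KI-Cre;Ezh2fl/fl than in Control for 31 of 38 genes, or 81.6%, and for 74.5% of all genes tested. Its median over the 38 was 0.07 in Control and 0.15 in Osr2KI-Cre;Ezh2fl/fl libraries, against 0.11 and 0.18 over all genes. The libraries within a group are not labelled by litter or batch.

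**Figure D4:**
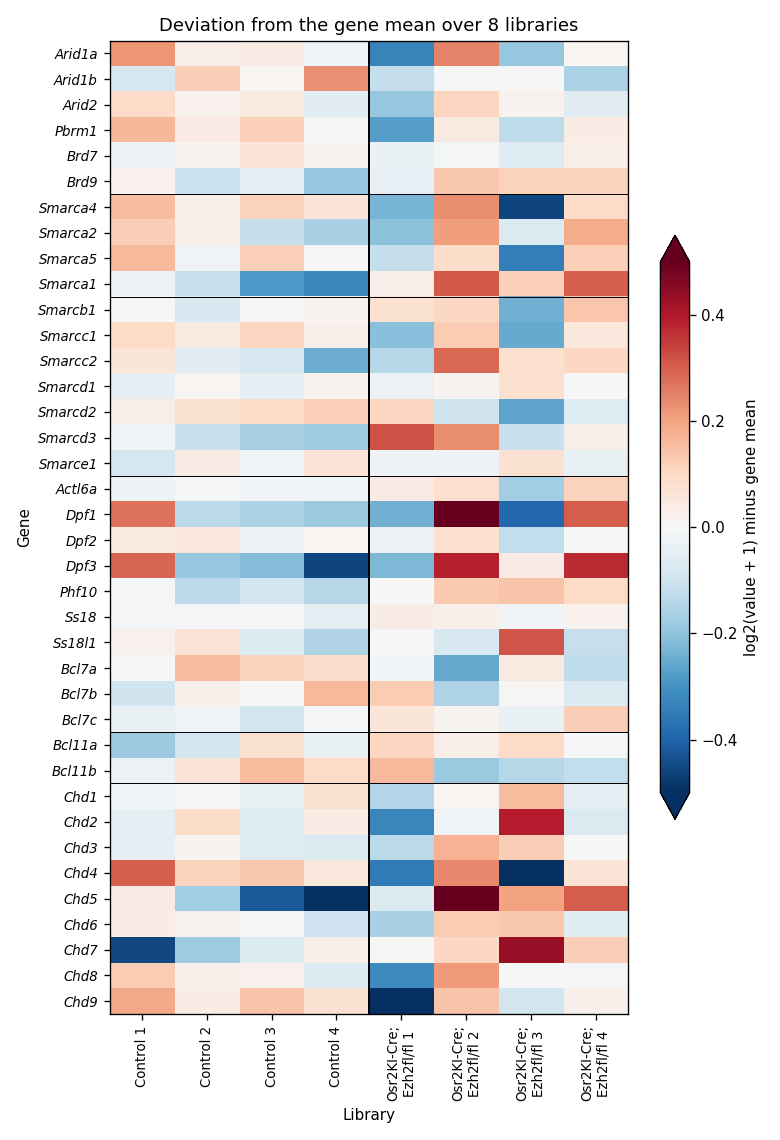
Deviation of log2(value + 1) from the gene mean over 8 libraries, in rows by role and columns by library, with the colour scale limited to 0.5 in either direction. Osr2KI-Cre;Ezh2fl/fl library 1 is blue for Chd4, Chd9, Arid1a and Smarca4, library 3 for Chd4, Smarca4 and Smarca5, and library 2 holds the highest value of 14 of the 38 genes.

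Ratios between alternative subunits were compared within each library, where a scaling factor common to all genes leaves them nearly unchanged. Of the 15 ratios planned 14 could be formed. In 5 of the 14 the groups did not overlap, where this was so for 10.1% of all pairs of tested genes, and each of the 5 had the smallest exact permutation p possible, 0.0286 (2-sided, 70 arrangements), or 0.0801 after Benjamini-Hochberg adjustment over the 14. So 0 ratios passed after adjustment. The ratios share genes with the comparisons above and are not separate evidence of them.

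The log2 ratio of *Smarca5* to *Smarca1* was 1.18, 1.08, 1.40 and 1.31 in Control and 0.85, 0.78, 0.53 and 0.81 in Osr2KI-Cre;Ezh2fl/fl libraries 1 to 4, a difference of means of -0.50, the largest of the 14. The log2 ratio of *Smarcc1* to *Smarcc2*, the paired scaffold subunits BAF155 and BAF170, was -0.15, -0.09, 0.00 and 0.09 in Control and -0.25, -0.35, -0.52 and -0.24 in Osr2KI-Cre;Ezh2fl/fl libraries, a difference of -0.30. That of *Dpf2* to *Phf10* was 0.41 ± 0.06 and 0.19 ± 0.11 (SD, n = 4 each). That of *Chd4* to *Chd3* was -0.12, -0.37, -0.27 and -0.34 in Control and -0.68, -0.40, -1.15 and -0.40 in Osr2KI-Cre;Ezh2fl/fl libraries, a difference of -0.38 that rests mostly on libraries 1 and 3. The one ratio that was higher in every Osr2KI-Cre;Ezh2fl/fl library was *Bcl11a* to *Bcl11b*, at 1.24, 1.24, 1.31 and 1.26 in Control and 1.34, 1.61, 1.64 and 1.51 in Osr2KI-Cre;Ezh2fl/fl libraries. Neither gene of that pair had an unadjusted p under 0.05 alone.

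The ratio of *Arid1a* to *Arid1b* differed by 0.00 on the log2 scale (0.86 ± 0.23 and 0.86 ± 0.24, SD, n = 4 each, exact permutation p = 0.971) and that of *Arid1a* to *Arid2* by -0.08 (exact permutation p = 0.429). The log2 ratio of *Arid1a* to *Ezh2* was 1.76, 2.08, 2.04 and 2.00 in Control and 1.83, 2.63, 2.56 and 2.14 in Osr2KI-Cre;Ezh2fl/fl libraries. Its means were 1.97 ± 0.15 and 2.29 ± 0.38 (SD, n = 4 each), a difference of 0.32 (exact permutation p = 0.2). Osr2KI-Cre;Ezh2fl/fl library 1 lay within the Control range. *Smarca4* to *Smarca2* (-0.24) and *Brd9* to *Brd7* (0.20) each had an exact permutation p of 0.0571, and *Chd7* to *Chd8* (0.39) one of 0.0857. The other 3 ratios, *Smarcd1* to *Smarcd3*, *Ss18* to *Ss18l1* and *Chd1* to *Chd2*, had exact permutation p from 0.229 to 0.914.

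**Figure D5:**
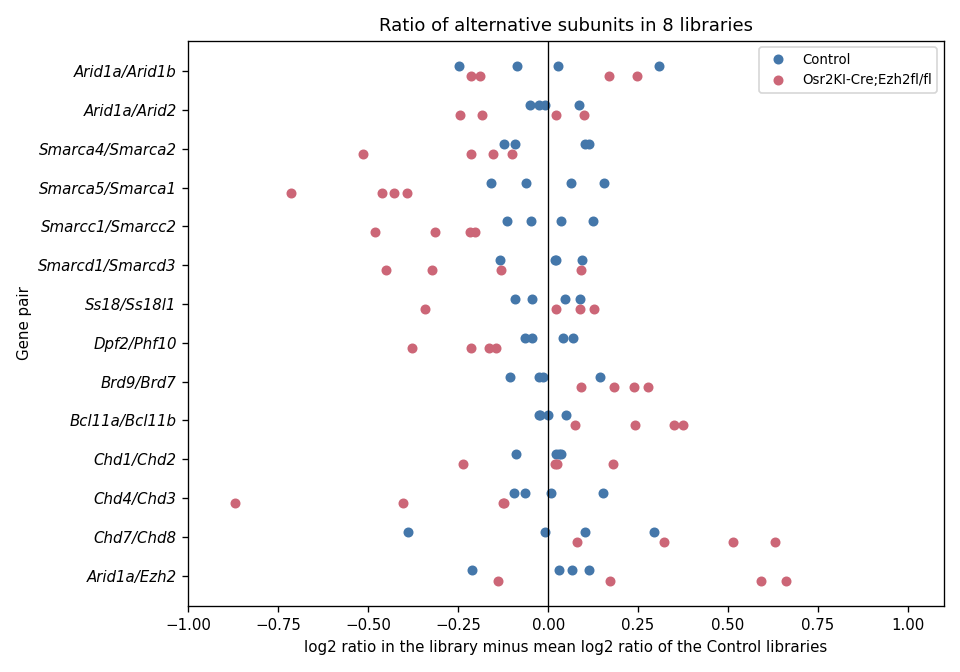
Log2 ratio of 14 gene pairs in each library, minus the mean log2 ratio of the 4 Control libraries, with 1 point a library. The Osr2KI-Cre;Ezh2fl/fl points lie wholly to the left of the Control points for Smarca5/Smarca1, Smarcc1/Smarcc2, Dpf2/Phf10 and Chd4/Chd3, and to the right for Bcl11a/Bcl11b.

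Partner subunits of these complexes and other remodeler families were read from a fixed list of 34 genes, among them the NuRD subunits *Mta1* to *Mta3*, *Mbd2*, *Mbd3*, *Hdac1* and *Hdac2*, the ISWI partners *Baz1a*, *Baz1b* and *Bptf*, and the INO80 and SRCAP ATPases. All 34 were tested and 0 passed an unadjusted p of 0.05 in either direction, where 8.27% of all genes were higher and 4.87% lower. Log2 fold changes ran from -0.16 for *Baz1a* to 0.08 for *Bicra*, with a median of -0.04 and 7 positive. *Mta2*, a NuRD subunit, was the one gene of the 34 with every Osr2KI-Cre;Ezh2fl/fl library below every Control library, where 2.77% of all genes were (log2 fold change -0.12, limma adjusted p = 0.422, exact permutation p = 0.0286).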

How the data were processed

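RNA-seq values of 8 libraries of PN day 3 molar mesenchyme were taken from 1 table, with groups and replicate numbers from the titles. The authors deposited normalised signal per gene, on mm10 per the labels. The submitters' processing notes list CASAVA 1.8.2, STAR 2.5.3a and Partek, whereas the study's methods name TopHat and RPKM. Those methods give 4 samples per group but describe the sequencing of 3 pairs, and the deposited table holds 4 libraries of each group. The libraries share an upper quartile of 38.5, and the smallest value is common to many genes of any length, so the values were read as not divided by length. The smallest value of each library was taken as 1 added read, which gave 48.3 to 68.8 M estimated reads a library. Between 58.9% and 64.4% of values under 20 such reads were whole to within 0.02 of a read, so no count model was used. Strand was not given in the sources used here, so overlapping genes are uncertain.

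Genes that reached a value of 1 in 4 or more of the 8 libraries were fitted with limma 3.58.1 (R 4.3.3; empirical Bayes with trend, no covariate, 2-sided) on log2(value + 1), with Benjamini-Hochberg adjustment over all 14854 genes. Fold changes are on that scale and understate changes of low genes. Ratios were tested with exact permutation over 70 arrangements. The fit was checked on simulated data. All members were named, by role. Partner genes were to be named past a threshold, which 0 passed in the main fit. Those named therefore only show what the list holds, apart from the following. Mta2 and the ends of the partner range were named after their values were seen. Members and lists were chosen with earlier results of these data known. Alternatives were another pseudocount (0.1 or 5), filter (none or 10), scaling, variance model, library weights, a replicate block, enamel or Xist covariates and leaving out each library. Leaving out the 3 enamel-high libraries was chosen after seeing the data. Exon lengths and overlaps came from GENCODE (GRCm38), promoters from RefSeq (GRCm38.p6). Bicra and Bicral were matched through older symbols.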

Additional observations from a re-analysis of the deposited data

Results flagged for a closer look

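For the 38 genes, 76 groups of 4 libraries were examined on log2(value + 1), and in 5 of them a single library was distant from the rest of its group, a rate that chance gives in about 1 of 20 (3.8 groups). In Osr2KI-Cre;Ezh2fl/fl molars, *Brd9* was 57.8 in library 1 against 64.4 to 65.5 in the other 3. *Smarcb1* was 64.0 in library 3 against 79.9 to 83.5, and *Smarce1* was 230.3 in library 3 against 213 to 214. In Control molars, *Dpf1* was 7.12 in library 1 against 4.93 to 5.14, and *Ss18* was 103.3 in library 4 against 106.2 to 106.4. Of these genes *Brd9* had an unadjusted p under 0.05 between the groups. Its log2 fold change was 0.20 without Osr2KI-Cre;Ezh2fl/fl library 1 (limma adjusted p = 0.185) and 0.13 without Control library 4 (unadjusted p = 0.129), and its unadjusted p was under 0.05 in 2 of the 8 fits that left out 1 library.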

How the results depend on the processing

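The main counts were 0 of 38 genes at an adjusted p under 0.05, and 6 higher and 0 lower at an unadjusted p under 0.05. With library weights, which gave Osr2KI-Cre;Ezh2fl/fl library 4 a weight of 9.66 and called 4040 of all genes, they were 17, 13 and 4, where 27.2%, 22.0% and 18.7% of all genes were called, and the partner genes had 6 higher and 5 lower. With the enamel covariate 1 gene was called at the adjusted p (2.03% of all genes) and 4 were lower at the unadjusted p (6.11%). Median-of-ratios scaling gave 2 lower, and 1 lower among the partner genes (5.88%), and the Xist covariate gave 1 lower (5.02%). Without the 3 enamel-high libraries 2 genes, *Smarca1* and *Chd7*, were higher (4.08% of all genes). Leaving out each library gave 3 to 7 genes higher, 0 to 6 lower (6 without Osr2KI-Cre;Ezh2fl/fl library 2, where 4.5% of all genes were, and 3 without library 1, where 5.33% were) and 0 at the adjusted p, 0 to 1 lower partner genes, and an *Arid1a* log2 fold change from -0.24 to -0.045. The fewest genes higher, 3, were found without Control library 2 (7.16% of all genes). *Smarca1* kept an unadjusted p under 0.05 under each of its 20 alternatives, with adjusted p from 0.000581 (library weights) to 0.683. The sign of the log2 fold change was kept under every alternative for 25 of 38 genes. The number of ratios with groups apart was 5 to 7 over the 11 alternatives run on the ratios. The cause of these differences was not tested.

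The labels do not say whether the replicate numbers pair the libraries. Correlations of deviations between same-numbered libraries were -0.34, -0.08, 0.22 and -0.43. Differently numbered libraries were not compared, so these values do not decide whether the libraries were paired. With the replicate block 4 genes were higher (6.18% of all genes), 0 lower (3.68%) and 0 at the adjusted p, with unadjusted p of 0.0641 for *Phf10* and 0.125 for *Brd9*. Over all genes the calls at the adjusted p went from 308 to 73, and 7 of 14 ratios had all 4 within-number differences of one sign, as 18.5% of all pairs of tested genes did. With 4 libraries a group the median standard error of the 38 genes was 0.09 on the log2 scale.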
